A study of Oryza sativa with 27 samples.

Results

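The rice (Oryza sativa) gibberellin genes GA20OX3 (LOC4342505) and CYP714D1 (LOC4339131), also named EUI1, were followed through the first 4 days after pollination (DAP). The pair, 1 gene that makes the hormone and 1 that inactivates it, was set by gene number with earlier results of these data known. It makes up 2 of the 17905 genes that the array's probe sets could be named to. Each gene had 1 probe set and both passed the filter on low values. The tissue was the embryo sac and ovary of plants grown in paddy fields under normal conditions, with no treatment other than pollination and with no cultivar named in the labels. Each sample was cut into a smaller bottom part, which held the embryo, and a larger top part, which was mainly endosperm after pollination. The reference was the same part of unpollinated material. The 10 groups (2 parts before pollination and at 1, 2, 3 and 4 DAP) had 3 arrays each, except the top part at 1, 2 and 3 DAP, which had 2 arrays each.

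Gibberellins are diterpenoid hormones that drive cell elongation, flowering and seed germination. A series of plastid and membrane enzymes makes an early precursor, and gibberellin 20-oxidases such as GA20OX3 carry out the oxidations that commit it towards the bioactive forms, a step that often limits the amount of hormone. Bioactive gibberellin binds the receptor GID1, which then leads DELLA repressors such as SLR1 to destruction. CYP714D1 is a cytochrome P450 that oxidises gibberellins to less active products, and rice plants that lack it are known for an overlong uppermost internode.

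Expression is given as the deposited probe-set intensity, in which a value of 1 is the 75th percentile of the same array. A level is therefore relative to the other transcripts of that array, and an intensity is not compared between the 2 genes because probe sets bind with different strength. Each part is a mixture of cell types, so that more cells of a type and more RNA per cell cannot be told apart. Changes were tested on log2(value + 0.13) with limma in 1 fit of all 27 arrays, with adjustment over 29332 probe sets, and a change was called at an adjusted p under 0.05. A fold is given on that scale, which understates changes of low values.

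Some arrays and cell type markers varied with part and day. The typical log2 distance of an array from its group mean was between 0.181 and 0.516 (median 0.286), and the bottom replicate 3 arrays at 3 and 4 DAP were the most distant, at 0.516 and 0.484. The bottom replicate 3 array at 2 DAP, at 0.367, was little more distant than replicate 2 of its group, at 0.356. Bottom 3 DAP replicate 1 (0.379) and unpollinated top replicate 1 (0.376) were more distant than it. The bottom replicate 3 arrays of 2, 3 and 4 DAP, left out together below, were not chosen by a threshold on this distance. Of the 18S ribosomal RNA control probe sets, the one with the widest log2 range over the arrays was used. It varied between 0.127 and 33.6, and in the top part it was 0.403 to 0.811 before pollination and 23.9 and 25.4 at 3 DAP. With it as a covariate all 16 changes of the members stayed called, as at 3 DAP in the top part, where GA20OX3 was at 2.47 and CYP714D1 at 2.11 on the log2 scale (limma adjusted p = 8.19e-05 and 1.91e-06). Over 6 endosperm marker genes, the summed intensity had a median of 6.91 in the bottom part before pollination, 10.3 at 1 DAP and 44.2 at 4 DAP. At the same stages it was 8.13, 12.3 and 100.01 in the top part. The range over the arrays was 6.83 to 7.23 before pollination and 40.4 to 58.5 at 4 DAP in the bottom part, and 8.01 to 9.58 and 70.0 to 152 in the top part. Wx, which makes the amylose of endosperm starch, had a mean of 0.122 in the bottom part and 0.0914 in the top part at 1 DAP, against 14.6 and 43.3 at 4 DAP. The endosperm genes did not rise together. From before pollination to 1 DAP in the bottom part, AGPS2 went from 2.48 to 3.82 and Sbe1 from 3.025 to 5.01. Lower at 1 DAP were Wx (from 0.218), nf-yb1 (0.235 to 0.196), GLUA1 (0.106 to 0.0855) and GLUA2 (0.927 to 0.853). Directions were the same in the top part. At 4 DAP GLUA2 was at 0.959 in the bottom part. Over 10 genes listed as embryo markers, the summed median in the bottom part was 28.9 before pollination and 14.4 at 4 DAP (ranges 24.3 to 31.3 and 10.3 to 16.1). OSH1, a homeobox gene of meristems and the young embryo, had a mean of 20.9 there before pollination and 3.76 at 4 DAP, so this defining marker was present before an embryo was. The lower sum at 4 DAP followed OSH1, since ROC1 had a mean of 2.95 before pollination and 4.73 at 4 DAP, OsWOX13 of 2.67 and 3.09, and OsVP1 of 0.192 and 0.596. The embryo sum of the top part was 9.00 before pollination and 10.7 at 4 DAP (ranges 7.99 to 9.75 and 10.3 to 11.2). Over 3 nucellus genes the summed median in the bottom part was 25.3 before pollination, 25.0 at 1 DAP and 102 at 4 DAP. In the top part it was 13.7, 32.6 and 106. OsSWEET11 had the highest mean of the 3 in every group. In the bottom part its mean was 20.1 before pollination, 16.2 at 1 DAP and 78.9 at 4 DAP. There MADS29 rose from 1.24 to 3.08 and OsVPE1 from 3.85 to 5.13 by 1 DAP. In the top part OsSWEET11 went from 8.08 before pollination to 88.5 at 4 DAP. Over the same time MADS29 went from 2.64 to 9.93 and OsVPE1 from 4.76 to 6.90 there. The bottom-part summed median of 8 ovary wall and floral organ genes was 118 before pollination, 77.2 at 1 DAP and 150 at 4 DAP. In the top part it was 121, 58.5 and 185. The values of its members ran in both directions. The chlorophyll-binding protein genes CAB2R and LHCP had means of 13.9 and 4.53 in the bottom part before pollination and 66.4 and 22.3 at 4 DAP, and of 31.2 and 8.37 against 88.7 and 44.3 in the top part. The floral organ genes MADS16 and MADS2 (the brighter of 2 genes listed under that symbol) had means of 35.7 and 33.6 in the bottom part before pollination and 3.87 and 6.08 at 4 DAP, and the same MADS2 gene was at 11.9 and 1.15 and DL at 6.11 and 1.35 in the top part. Other floral genes of the list did not share this fall in the bottom part, where MADS58 was at 23.9 and 33.1 and MADS3 at 2.78 and 3.16. In the top part MADS58 was at 42.6 and 40.5 and MADS3 at 4.97 and 3.21. The share of these tissues in the changes below was not tested.

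Both genes were higher at every day after pollination than before it, in both parts. GA20OX3 was 3.62 to 6.80 times and CYP714D1 2.70 to 5.25 times the unpollinated level of the same part. On all 21 arrays after pollination each gene lay above all 6 unpollinated arrays, with a highest unpollinated value of 1.31 and a lowest later value of 3.15 for GA20OX3, and 0.404 and 0.776 for CYP714D1.

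**Figure D1:**
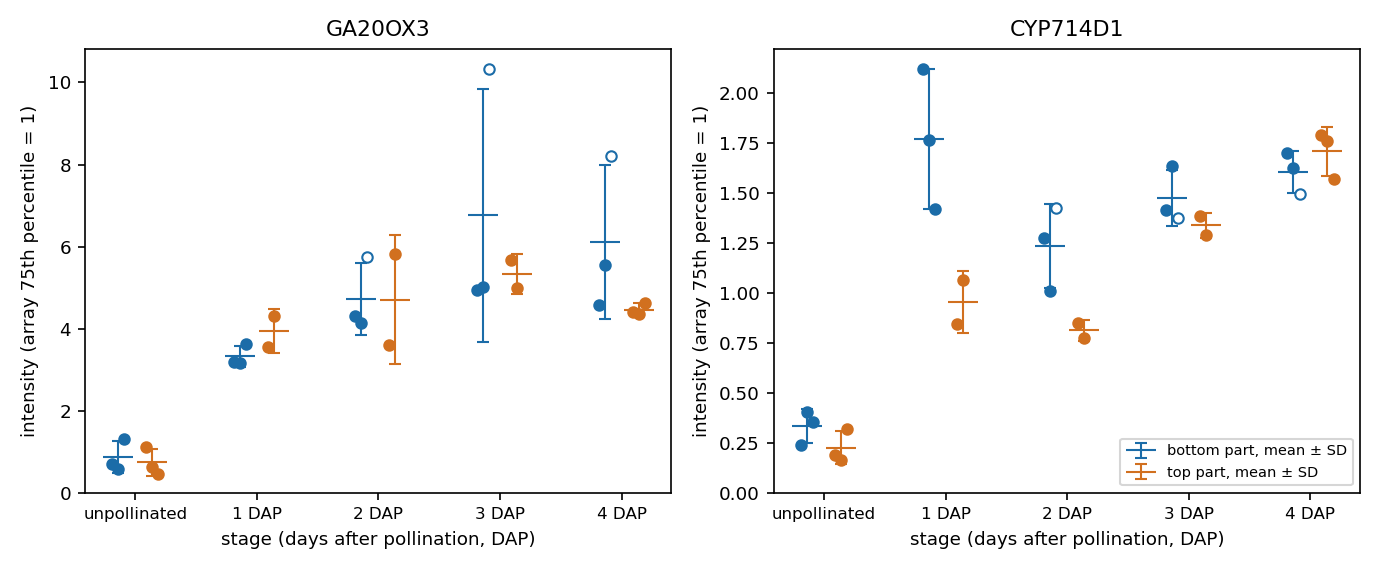
Intensity of GA20OX3 (left) and CYP714D1 (right) on each of the 27 arrays by stage, with the bottom part in blue and the top part in orange; 1 on the vertical axis is the 75th percentile of the array. Points are arrays, long bars are group means with SD, and open points are bottom replicate 3 at 2, 3 and 4 DAP. All arrays after pollination lie above all unpollinated arrays in both panels.

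GA20OX3, the enzyme of synthesis, had intensities of 0.705, 0.590 and 1.31 in the unpollinated bottom part (0.868 ± 0.387, SD, n = 3). At 1 DAP the bottom arrays read 3.19, 3.15 and 3.62 (3.32 ± 0.260, n = 3), and at 2 DAP 4.32, 4.13 and 5.74 (4.73 ± 0.878, n = 3). These groups did not overlap with each other or with the unpollinated arrays. At 3 DAP the bottom arrays read 4.93, 5.02 and 10.3 (6.76 ± 3.09, n = 3), and at 4 DAP 4.58, 5.54 and 8.20 (6.11 ± 1.87, n = 3). Replicate 3 was the highest of its group in all 5 bottom groups, and at 3 DAP it stood far above the other arrays, which read nearly alike.

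The bottom-part change of GA20OX3 from the unpollinated stage was 1.85 ± 0.31 (log2 ± SE) at 1 DAP, with a limma adjusted p of 2.21e-04. It was 2.34 at 2 DAP (adjusted p = 1.64e-05), 2.77 at 3 DAP (1.58e-06) and 2.67 at 4 DAP (2.16e-06), each with the same SE. The folds were 3.62, 5.05, 6.80 and 6.36 in that order. GA20OX3 and CYP714D1 were both called higher on each day, while 7.80%, 7.80%, 8.34% and 12.0% of all tested probe sets were called higher in the bottom part at 1, 2, 3 and 4 DAP. Because the pair was chosen with earlier results of these data known, such shares, here and in the top part, are only a description. Without the bottom replicate 3 arrays of 2, 3 and 4 DAP, the GA20OX3 changes at those days were 2.19, 2.42 and 2.44, all with an adjusted p at or under 2.02e-05.

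The top arrays of GA20OX3 read 1.12, 0.637 and 0.466 before pollination (0.739 ± 0.337, n = 3). It read 3.56 and 4.32 at 1 DAP (3.94 ± 0.533, n = 2), 3.60 and 5.81 at 2 DAP (4.71 ± 1.57, n = 2), and 5.68 and 4.99 at 3 DAP (5.33 ± 0.489, n = 2). At 4 DAP the values were 4.40, 4.37 and 4.64 (4.47 ± 0.148, n = 3). The 2 DAP arrays overlapped with all 3 other groups after pollination, while the arrays at 1, 4 and 3 DAP were separate from each other, in that rising order. The log2 changes from the unpollinated top part were 2.29 ± 0.34, 2.51 ± 0.34, 2.72 ± 0.34 and 2.47 ± 0.31 at 1, 2, 3 and 4 DAP, or 4.89, 5.68, 6.58 and 5.55-fold. Their limma adjusted p values were 1.00e-04, 4.28e-05, 8.76e-06 and 3.14e-06.

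CYP714D1, the inactivating enzyme, read 0.238, 0.404 and 0.356 in the unpollinated bottom part (0.332 ± 0.0853, n = 3). Its highest group mean was that of the bottom part at 1 DAP, where the arrays read 2.12, 1.77 and 1.42 (1.77 ± 0.351, n = 3). The bottom arrays then read 1.27, 1.01 and 1.43 at 2 DAP (1.24 ± 0.210, n = 3), 1.42, 1.63 and 1.37 at 3 DAP (1.47 ± 0.139, n = 3), and 1.70, 1.62 and 1.49 at 4 DAP (1.61 ± 0.104, n = 3). These 4 groups overlapped with their neighbours in time. The log2 changes from the unpollinated stage were 2.04, 1.57, 1.81 and 1.92 (SE 0.18), or 4.11, 2.97, 3.50 and 3.79-fold, and the limma adjusted p values were 6.86e-08, 2.28e-06, 2.97e-07 and 1.11e-07. Without bottom replicate 3 of 2, 3 and 4 DAP the changes at those days were 1.47, 1.85 and 1.97.

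The top arrays of CYP714D1 read 0.192, 0.165 and 0.321 before pollination (0.226 ± 0.0835, n = 3). It read 0.846 and 1.06 at 1 DAP (0.955 ± 0.154, n = 2), 0.850 and 0.776 at 2 DAP (0.813 ± 0.0526, n = 2), 1.38 and 1.29 at 3 DAP (1.34 ± 0.0640, n = 2), and 1.79, 1.76 and 1.57 at 4 DAP (1.71 ± 0.120, n = 3). Arrays at 1 and 2 DAP overlapped, those at 3 DAP lay above both, and those at 4 DAP lay above 3 DAP. The log2 changes from the unpollinated top part were 1.63 ± 0.20, 1.43 ± 0.20, 2.07 ± 0.20 and 2.39 ± 0.18, or 3.09, 2.70, 4.20 and 5.25-fold. The limma adjusted p values were 1.20e-05, 4.92e-05, 2.82e-07 and 3.59e-09. Both genes were called higher on each day, while 9.83%, 10.2%, 14.1% and 18.1% of tested probe sets were called higher in the top part at 1, 2, 3 and 4 DAP.

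**Figure D2:**
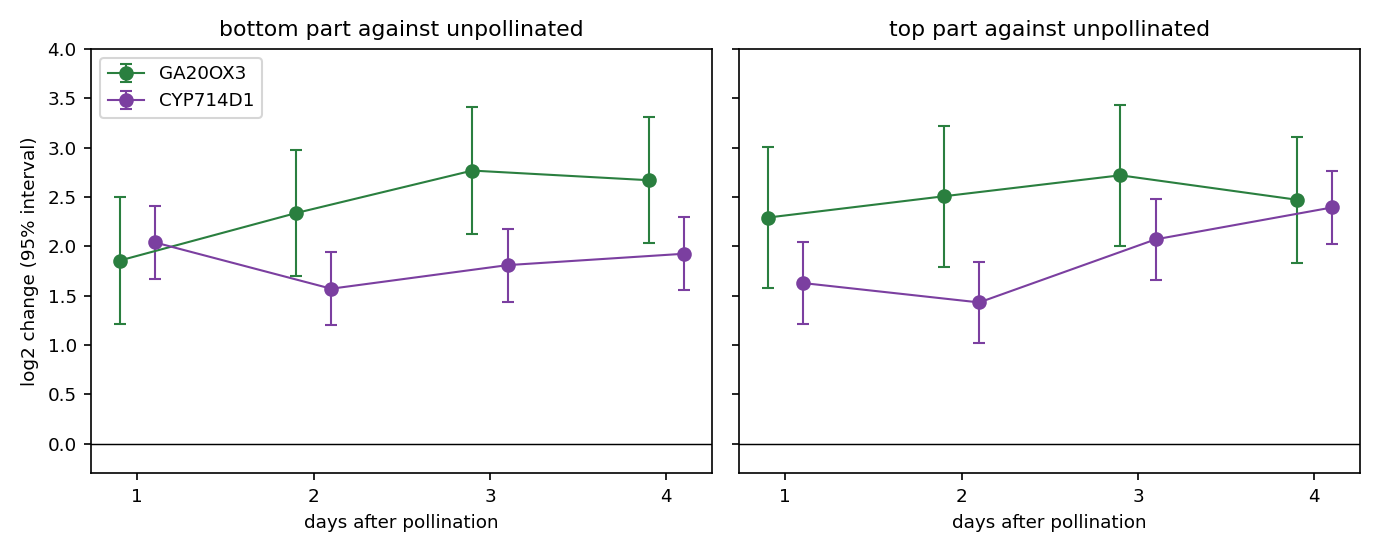
Log2 change from the unpollinated stage with its 95% interval by day after pollination, in the bottom part (left) and the top part (right), for GA20OX3 (green) and CYP714D1 (purple); points are set slightly apart for legibility. All 16 intervals lie above 0; GA20OX3 ran from 1.85 to 2.77 and CYP714D1 from 1.43 to 2.39.

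The size of the rises can be placed among all tested probe sets, as a description of a pair chosen with earlier results known. A larger log2 change than that of GA20OX3 was measured for 1.55%, 0.573%, 0.365% and 0.583% of them at 1, 2, 3 and 4 DAP in the bottom part, and for 0.951%, 0.675%, 0.798% and 1.58% in the top part. For CYP714D1 the shares were 1.19%, 2.01%, 1.43% and 1.49% in the bottom part and 2.70%, 3.71%, 1.80% and 1.72% in the top part. With a pseudocount 4 times larger the changes of CYP714D1 moved by over 1.5 times in 6 of its 8 comparisons, to between 0.84 and 1.58, and stayed called.

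The rise was present at 1 DAP, and no later step from day to day was called for either gene. Only neighbouring days were compared, so a gradual change from 1 to 4 DAP was not tested. For GA20OX3 in both parts and CYP714D1 in the top part, all arrays at 4 DAP lay above those at 1 DAP. The highest CYP714D1 top array at 1 DAP read 1.06 and the lowest at 4 DAP 1.57. In the bottom part the CYP714D1 arrays of these days overlapped. Over the 6 steps of the 2 parts, 0 of the 12 limma tests of the members passed, and 2 had an unadjusted p under 0.05. These were the step of CYP714D1 from 1 to 2 DAP in the bottom part, at -0.47 (adjusted p = 0.387), and its step from 2 to 3 DAP in the top part, at 0.64 with a 95% interval from 0.19 to 1.09 (adjusted p = 0.157). For GA20OX3 in the bottom part the step from 1 to 2 DAP was 0.48, with an interval from -0.16 to 1.12 (adjusted p = 0.945). Few probe sets were called in these steps, 0.968%, 0.0682% and 0.0102% of those tested in the bottom part and 0.917%, 2.20% and 0.181% in the top part, in order of time. Without bottom replicate 3 of 2, 3 and 4 DAP the number called moved from 20 to 381 from 2 to 3 DAP and from 3 to 0 from 3 to 4 DAP in the bottom part, and from 269 to 611, 645 to 1239 and 53 to 93 in the top part.

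Ordered by mean level, GA20OX3 was highest in the bottom part at 3 DAP, followed by bottom 4 DAP, top 3 DAP, bottom 2 DAP, top 2 DAP, top 4 DAP, top 1 DAP, bottom 1 DAP, bottom unpollinated and top unpollinated. Arrays of neighbouring groups overlapped in 7 of the 9 steps of that order, and were separate only between top 4 and top 1 DAP and between bottom 1 DAP and bottom unpollinated. CYP714D1 was highest in the bottom part at 1 DAP, followed by top 4 DAP, bottom 4 DAP, bottom 3 DAP, top 3 DAP, bottom 2 DAP, top 1 DAP, top 2 DAP, bottom unpollinated and top unpollinated. Its neighbours overlapped in 8 of the 9 steps, and were separate only between top 2 DAP and bottom unpollinated.

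Top and bottom parts were compared at each stage. For GA20OX3 no difference between the parts was called, and the top minus bottom log2 differences were -0.20 before pollination (95% interval -0.84 to 0.44), 0.23 at 1 DAP (-0.48 to 0.95), -0.03 at 2 DAP (-0.75 to 0.68), -0.25 at 3 DAP (-0.96 to 0.47) and -0.40 at 4 DAP (-1.04 to 0.24). The limma adjusted p values were between 0.545 and 0.995. The arrays of the parts overlapped at every stage, and the 5 intervals together ran from -1.04 to 0.95. Without the bottom replicate 3 arrays of 2, 3 and 4 DAP the differences at these days were 0.11, 0.10 and -0.17.

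CYP714D1 was lower in the top than in the bottom part at 1 DAP, with a difference of -0.80 ± 0.20 on the log2 scale (95% interval -1.21 to -0.38, limma adjusted p = 0.0221), or 1.74-fold. Both top arrays, at 0.846 and 1.06, lay below the lowest bottom array, at 1.42. At 1 DAP 2.74% of tested probe sets were called lower in the top part. The call was lost when any 1 of 4 of the 5 arrays was left out, with adjusted p values of 0.113 without bottom replicate 1 (-0.67), 0.0649 without bottom replicate 2 (-0.79), 0.392 without top replicate 1 (-0.65) and 0.0601 without top replicate 2 (-0.94). It was also lost in a fit of only the arrays compared (adjusted p = 0.0846).

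At the other stages CYP714D1 did not pass the test between parts. The difference was -0.39 before pollination (-0.76 to -0.02, adjusted p = 0.158), -0.53 at 2 DAP (-0.94 to -0.11, 0.264), -0.13 at 3 DAP (-0.54 to 0.29, 0.772) and 0.08 at 4 DAP (-0.29 to 0.45, 0.842). At 2 DAP both top arrays again lay below all bottom arrays. Without the top replicate 3 array of the unpollinated stage the difference before pollination was -0.57, with an adjusted p of 0.0349. Of all tested probe sets, 8.13% were called lower in the top part before pollination, 1.12% at 2 DAP, 1.57% at 3 DAP and 1.29% at 4 DAP.

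**Figure D3:**
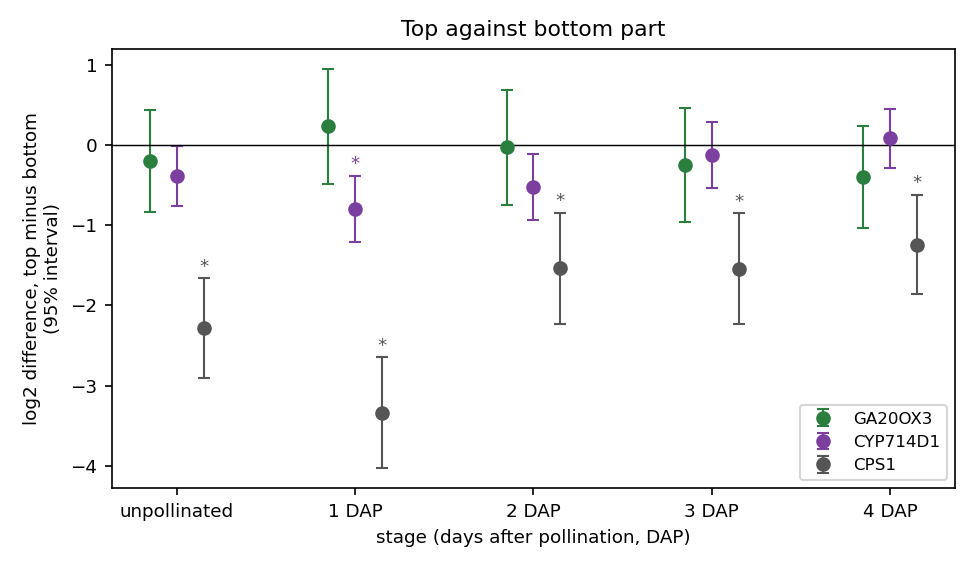
Top minus bottom log2 difference with its 95% interval by stage for GA20OX3 (green), CYP714D1 (purple) and the early synthesis gene CPS1 (grey); points below 0 are higher in the bottom part and an asterisk marks an adjusted p under 0.05. Intervals of GA20OX3 cross 0 at all 5 stages, CYP714D1 was called at 1 DAP at -0.80, and CPS1 was called at all 5.

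Whether the change since the unpollinated stage differed between parts was tested directly as an interaction. Of the 8 tests of the 2 genes, 0 passed in limma and 0 had an unadjusted p under 0.05, while 1.05%, 1.52%, 4.01% and 3.69% of tested probe sets were called at 1, 2, 3 and 4 DAP. For GA20OX3 the top minus bottom differences in the log2 change were 0.44, 0.17, -0.05 and -0.20 in order of time. For CYP714D1 they were -0.41, -0.14, 0.26 and 0.47, and the last had an interval from -0.05 to 0.99 (adjusted p = 0.386).

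The genes of synthesis and of inactivation were then set side by side. Over the 10 group means of log2 values the Pearson correlation of GA20OX3 and CYP714D1 was 0.905, while over the 8 groups after pollination it was 0.0963. Over the 27 arrays the deviations from the group means correlated at -0.225. These are descriptions of samples that share arrays and scaling. The log2 change of GA20OX3 minus that of CYP714D1 was -0.18, 0.77, 0.96 and 0.74 in the bottom part at 1, 2, 3 and 4 DAP and 0.66, 1.08, 0.65 and 0.08 in the top part. These differences moved with the pseudocount. With one 4 times larger, GA20OX3 changed by 1.501 and CYP714D1 by 1.42 in the bottom part at 1 DAP, and by 2.02 and 1.58 in the top part at 4 DAP. Taken array by array, the GA20OX3 minus CYP714D1 value was separate from the unpollinated arrays only in the bottom part at 2 DAP, at 1.66 to 1.91 against 0.43 to 1.57, and overlapped with them in the 7 other comparisons.

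**Figure D4:**
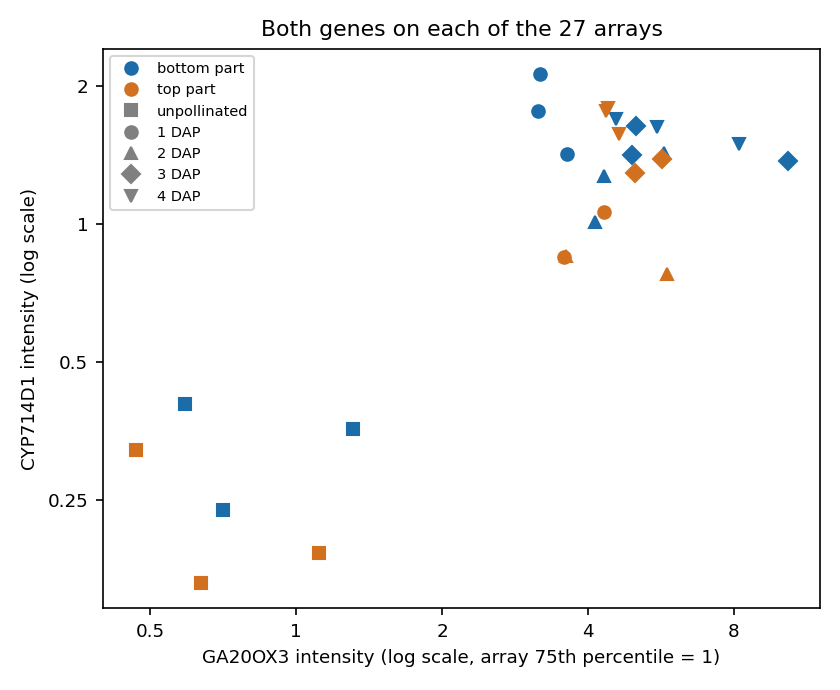
Intensity of CYP714D1 (vertical, log scale) against that of GA20OX3 (horizontal, log scale) on each of the 27 arrays, with the part by colour and the stage by symbol; 1 is the 75th percentile of the array. The 6 unpollinated arrays form the lower left group and the 21 arrays after pollination the upper right group, within which the group means correlated at 0.0963.

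GA20OX3 ranked 82nd of 15274 genes by likeness to CYP714D1 over the 10 group means, and CYP714D1 ranked 161st for GA20OX3. Only 43 and 44 genes had a symbol other than a locus number and group means spanning at least 1 on the log2 scale. Among these, DCD1 (r = 0.857), P5CS1, an enzyme of proline synthesis (0.852), and CRO1 (0.824) were most like GA20OX3, and GA20OX3 itself (0.905), PRX112, a peroxidase (0.795), and DCD1 (0.769) were most like CYP714D1. DCD1 went from a mean of 5.90 (arrays 4.62 to 6.90) in the unpollinated bottom part to 9.60 (8.63 to 11.3) at 4 DAP.

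When synonyms were also read as names, a wider reading added after values were seen, there were 1348 candidates. DAO (LOC4336150; r = 0.979), a dioxygenase that inactivates auxin, was then most like GA20OX3, followed by MIL2 (LOC4352199; 0.978) and CSase (LOC4334101; 0.970), named for cysteine synthase. In the bottom part DAO had a mean of 1.43 (arrays 0.591 to 2.53) before pollination and 12.1, 18.8, 22.5 and 16.1 at 1, 2, 3 and 4 DAP. Most like CYP714D1 were FIB (LOC4325198; 0.952), an aminotransferase of auxin synthesis, OsUAH (0.945) and G6PGH1 (0.943). FIB had a mean of 0.412 (0.388 to 0.445) in bottom arrays before pollination and 4.05 (2.24 to 4.98) at 1 DAP, and 0.213 and 1.31 in the top part. Without the 3 bottom replicate 3 arrays of 2, 3 and 4 DAP these correlations were between 0.914 and 0.972. They rest on 10 points that share the step between unpollinated and later groups.

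The other genes of the hormone's pathway came from a list of 19 gene names, of which 15 had a probe set and 14, the 2 members included, passed the filter. KAO, the kaurenoic acid oxidase, was below it. Gibberellin 3-oxidases and 2-oxidases were not matched by name and were not analysed here. Among the 12 genes other than the members, 2 were called higher and 2 lower at 1 DAP in the bottom part, 2 and 4 on the second day, and 2 and 3 on each of the later days. This was 33.3%, 50.0%, 41.7% and 41.7% of the 12, where 13.4%, 14.2%, 16.0% and 20.3% of all tested probe sets were called in either direction. Of the 12 in the top part, 4 were called higher and 1 lower at 1 DAP, 3 and 0 on the second day, and 3 and 2 on each of the later days, or 41.7%, 25.0%, 41.7% and 41.7%, where 17.3%, 18.5%, 25.2% and 34.6% of all were. The median log2 change of the 12 was between -0.17 and 0.07 in the bottom part and between -0.23 and 0.11 in the top part, and that of all tested probe sets between -0.06 and 0.01. Calls were made in both directions in 7 of the 8 comparisons. The counts include CYP701A8 and LOC4329775, whose place in the pathway is doubtful, as described below. CYP701A8 was called higher on each day in the bottom part and LOC4329775 on each day in the top part. Some of these calls were less stable, as given below. At 4 DAP in the bottom part CYP701A8 and LOC4329775 were the 2 genes called higher. The list was chosen with earlier results of these data known, so the shares are a description. They also count unlike units, the brightest probe set of each listed gene against every tested probe set.

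**Figure D5:**
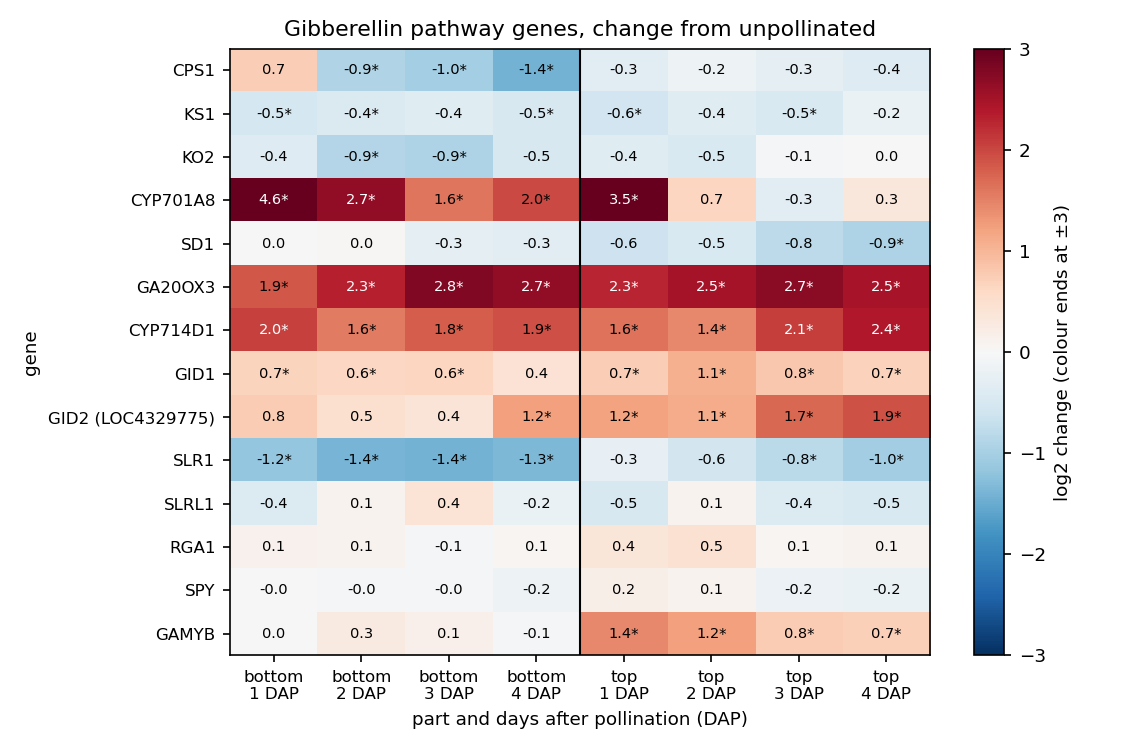
Log2 change from the unpollinated stage of the 14 tested gibberellin genes (rows, from early synthesis to signalling) by part and day (columns), with the value in each cell and an asterisk for an adjusted p under 0.05; red is higher and blue lower. GA20OX3 and CYP714D1 are called higher in all 8 columns, and SLR1 is called lower in 6 of 8.

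Among the genes of early synthesis, CPS1, which encodes the cyclase of the first committed step, was fainter in the top part. Before pollination the mean intensity was 1.17 ± 0.192 (SD, n = 3) in the bottom and 0.140 ± 0.0633 (n = 3) in the top part, and it was 2.05 ± 0.461 (n = 3) against 0.0827 ± 0.00597 (n = 2) at 1 DAP. The top minus bottom log2 differences were -2.28, -3.34, -1.54, -1.54 and -1.24 from unpollinated to 4 DAP, with limma adjusted p values of 1.54e-05, 1.75e-06, 0.0176, 0.0106 and 0.0274. The first and second of these held when any 1 array was left out. At 2 DAP the call was lost without bottom replicate 1 (adjusted p = 0.0810), bottom replicate 3 (0.0852), top replicate 1 (0.263) or top replicate 2 (0.106). At 3 DAP it was lost without top replicate 1 (0.147) or 2 (0.0521). At 4 DAP it was lost without bottom replicate 2 (0.0933) or 3 (0.121), or top replicate 1 (0.0813), 2 (0.0711) or 3 (0.107). The top-part levels were near or below the pseudocount, and with a pseudocount 4 times larger the 5 differences were -1.35, -2.08, -0.79, -0.79 and -0.56, of which those at 2 DAP (adjusted p = 0.0645) and 4 DAP (0.125) were no longer called. With only the arrays compared, those at 2, 3 and 4 DAP were not called (0.0974, 0.439 and 0.0550).

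Within the bottom part CPS1 was called lower than before pollination at 4 DAP, where its mean was 0.359 ± 0.110 (n = 3), with a change of -1.42 ± 0.30 on the log2 scale (limma adjusted p = 0.00153), and this held when any 1 array was left out. It was also called at 2 and 3 DAP, at -0.90 and -1.02, with adjusted p values of 0.0473 and 0.0231. These calls were less stable. Leaving out unpollinated replicate 1, 2 or 3 (adjusted p = 0.0521, 0.137, 0.129) or 2 DAP replicate 1 or 2 (0.0770, 0.225) ended the first of them. Leaving out replicate 2 or 3 of the unpollinated stage (0.0813, 0.0659) or replicate 1 or 2 of 3 DAP (0.140, 0.0777) ended the second. With only the arrays compared neither was called (0.0742 and 0.195). At 1 DAP its change was 0.74 (adjusted p = 0.115), and in the top part its changes were between -0.39 and -0.16, none of them called.

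The other early genes moved less or are of doubtful place in the pathway. KS1, the synthase that follows CPS1, was called lower by 0.44 to 0.59 on the log2 scale at 5 of 8 comparisons, as in the bottom part at 4 DAP, where the mean was 2.00 ± 0.163 (n = 3) against 2.82 ± 0.104 (n = 3; -0.47, limma adjusted p = 0.0118). Its calls in the bottom part at 1 and 4 DAP held when any 1 array was left out, but none of the 5 held with only the arrays compared (adjusted p from 0.0677 to 0.233). The bottom 2 DAP call ended when replicate 1 (adjusted p = 0.0556) or 3 (0.0849) of the unpollinated stage, or replicate 1 (0.0877) or 3 (0.0705) of 2 DAP, was left out. The top 1 DAP call ended without 1 DAP replicate 2 (0.126), and the top 3 DAP call ended without replicate 2 of the unpollinated stage (0.0531) or 3 DAP replicate 1 (0.245). KO2, an oxidase that follows, was called lower in the bottom part at 2 and 3 DAP, at -0.88 and -0.93 for its brighter probe set (adjusted p = 0.00386 and 0.00254). Another probe set of KO2 was also tested. At 1 DAP in the bottom part the KO2 probe sets changed by -0.39 and -0.05, neither of them called (limma adjusted p = 0.231 and 0.870). CYP701A8 carries the name KO1 in the gene table but is known for making phytoalexins, the defence compounds of rice. It rose in the bottom part from 0.124 ± 0.0163 to 6.56 ± 2.67 at 1 DAP (n = 3 each), by 4.63 ± 0.45 on the log2 scale (limma adjusted p = 3.20e-07), and in the top part from 0.166 ± 0.0351 (n = 3) to 3.18 ± 0.731 (n = 2; 3.47, adjusted p = 7.48e-05). In the bottom part it was at 1.51, 0.658 and 1.19 at 2, 3 and 4 DAP, and in the top part at 0.335, 0.106 and 0.284, where no call was made. In the bottom part its call at 3 DAP (1.61, adjusted p = 0.0182) ended without replicate 1 of the unpollinated stage (0.0562) or 3 DAP replicate 2 (0.0725), and at 4 DAP its change of 1.99 was 1.29 without 4 DAP replicate 1. Its level before pollination was near the pseudocount, which sets the size of these changes: with one 4 times larger they were 3.38, 1.64, 0.86 and 1.19 in the bottom part at 1, 2, 3 and 4 DAP and 2.42 in the top part at 1 DAP, and the bottom 3 DAP call ended (0.0860). With only the arrays compared the bottom 4 DAP call ended (0.0592).

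SD1 (GA20OX2), the gibberellin 20-oxidase gene behind semi-dwarf rice and the nearest relative of GA20OX3 on the list, was called higher on no day. In the bottom part the mean was 0.860 ± 0.110 before pollination and 0.660 ± 0.151 at 4 DAP (n = 3 each; -0.34, adjusted p = 0.451), with changes of 0.02, 0.03 and -0.27 at 1, 2 and 3 DAP. In the top part it was called lower at 4 DAP, with 1.42 ± 0.572 before pollination and 0.651 ± 0.0762 at 4 DAP (n = 3 each; -0.93 ± 0.27, limma adjusted p = 0.0110). That call was lost without unpollinated top replicate 3 (-0.66, adjusted p = 0.0825). The difference in change between SD1 and GA20OX3 was not tested.

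Among the signalling genes, SLR1, the DELLA repressor, fell in the bottom part from 7.65 ± 1.56 to 3.44 ± 1.03 at 1 DAP and 2.91 ± 0.437 at 4 DAP (n = 3 each). Its log2 changes were -1.15, -1.40, -1.41 and -1.35 (SE 0.25), with limma adjusted p values between 5.26e-04 and 0.00353. Its calls in the top part were lower at 3 DAP (-0.80, adjusted p = 0.0423) and 4 DAP (-1.05, 0.00284), with means of 4.93 ± 1.09 (n = 3) before pollination and 2.31 ± 0.442 (n = 3) at 4 DAP. The 3 DAP call ended when replicate 2 of the unpollinated stage was left out (-0.63, adjusted p = 0.156) and likewise for replicate 3 (-0.87, 0.0539) and for 3 DAP replicate 1 (-0.36, 0.589). No difference of SLR1 between the parts was called.

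GID1, the gibberellin receptor, was called higher at 7 of 8 comparisons, with a bottom-part mean of 2.05 ± 0.376 before pollination and 3.32 ± 0.293 at 1 DAP (n = 3 each; 0.67 ± 0.20, limma adjusted p = 0.0252). The top part rose from 1.47 ± 0.343 (n = 3) to 3.15 ± 0.321 at 2 DAP (n = 2; 1.06 ± 0.22, adjusted p = 0.00204). The bottom 1 DAP call ended without replicate 1 of the unpollinated stage (adjusted p = 0.128) or 1 DAP replicate 1, 2 or 3 (0.0551, 0.0968, 0.0525). The bottom 2 DAP call ended without replicate 1 or 2 of the unpollinated stage (0.161, 0.0532) or 2 DAP replicate 1, 2 or 3 (0.0989, 0.0867, 0.0618). The bottom 3 DAP call ended without replicate 1 of the unpollinated stage (0.140) or 3 DAP replicate 3 (0.132). The top-part call at 2 DAP held when any 1 array was left out. Without unpollinated replicate 2 the calls at 1, 3 and 4 DAP were lost (0.101, 0.0524, 0.0585), as they were without 1 DAP replicate 2 (0.260), 3 DAP replicate 2 (0.0905) and 4 DAP replicate 3 (0.0536) in that order. With the 18S control as a covariate the top 3 DAP change was 0.53 and not called (0.0599). With only the arrays compared 5 of the 7 calls ended, at 1, 2 and 3 DAP in the bottom part (0.0598, 0.0950, 0.202) and at 1 and 3 DAP in the top part (0.125, 0.0890). A second, dimmer probe set of GID1 did not pass the filter.

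GAMYB, a transcription factor that acts downstream of gibberellin in the cereal aleurone and anther, was called higher in the top part on all 4 days. Its mean there was 1.56 ± 0.369 (n = 3) before pollination and 4.39 ± 0.207 (n = 2) at 1 DAP, a log2 change of 1.44 ± 0.21 (limma adjusted p = 9.11e-05). In the bottom part its changes were between -0.07 and 0.27, none of them called, and at 1 DAP the parts differed by 0.99 (adjusted p = 0.00834), which was lost without top replicate 1 (0.141) or 2 (0.0622). The top minus bottom difference in its change was 1.43 at 1 DAP (adjusted p = 0.0130) and 0.96, 0.62 and 0.79 at 2, 3 and 4 DAP, where it was not called. Its call in the top part at 3 DAP (0.76, adjusted p = 0.0122) ended without replicate 2 of the unpollinated stage (0.0586) or 3 DAP replicate 1 (0.146). LOC4329775, which the gene table names both GID2, the F-box protein that tags DELLA proteins, and GF14E, rose in the top part from 3.91 ± 0.233 to 15.1 ± 2.45 at 4 DAP (n = 3 each; 1.91 ± 0.30, adjusted p = 4.23e-05), and which of the named genes its probe set reads is uncertain. The top 2 DAP call of LOC4329775 ended without replicate 1 of the unpollinated stage (1.06, limma adjusted p = 0.0521). Its top-part change was 0.75 at 2 DAP without 2 DAP replicate 1. At 1 DAP it was 1.17 without 1 DAP replicate 1 and 1.25 without replicate 2. Each of these last 3 fits left 1 array in its group. RGA1, SPY and SLRL1, genes of a G protein, a sugar transferase and a DELLA-like protein, were called in no comparison with the unpollinated stage.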

How the data were processed

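Biotin-labelled cRNA of each part and stage was measured on an Affymetrix array with 57381 probe sets. The deposited values are 1 intensity per probe set and array. The authors read the arrays with GCOS 1.3, per the submitters' processing notes, while how probes were summarised and background was handled is not given in the sources used. From the values, each array is linear and divided by its own 75th percentile. Arrays of a group are labelled biological replicates without plants or panicles being named, so p-values measure the spread between these arrays, and the number of arrays limits the precision.

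For this work, log2(value + 0.13) was tested, where 0.13 is the 20th percentile of rice probe-set values. Of 57258 rice probe sets, the 29332 whose mean exceeded the overall median value (0.264) entered the tests; 123 control probe sets did not. limma 3.58.1 in R 4.3.3 fitted 10 group means with an intensity trend (17 residual degrees of freedom, prior 3.68), so the spread was shared by all groups. Two-sided p-values were adjusted by Benjamini-Hochberg over all tested probe sets, with a threshold of 0.05, and intervals are 95% intervals without adjustment. The fit was checked on simulated data. Compared were each day and the unpollinated stage, the parts at each stage, the difference between parts in the change, and each day against the day before.

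Probe sets were named from the platform's gene table (22436 with 1 gene, 95 with several, 34727 with none), and all 17905 genes were found in a RefSeq table, whose positions were left out since no source names the build behind the array. The brightest tested probe set stood for a gene of the pathway list. Named were the members, the listed pathway genes that were called, and the 3 genes most like each member. The members and lists were chosen with earlier results of these data known. Alternatives were other pseudocounts, no filter, quantile normalization, no intensity trend, the 18S control as a covariate, a replicate block, only the arrays compared, leaving out each array, and leaving out bottom replicate 3 of 2, 3 and 4 DAP together.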

Additional observations from a re-analysis of the deposited data

Results flagged for a closer look

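GAMYB was the 1 result whose change differed between the parts by a test of the difference itself, at 1 DAP, where the top minus bottom difference in its log2 change from the unpollinated stage was 1.43 (limma adjusted p = 0.0130). All top arrays at 1 DAP lay above all bottom arrays. The call was lost without top 1 DAP replicate 1 (1.38, adjusted p = 0.102), without top 1 DAP replicate 2 (1.47, 0.0654) and in a fit of only the arrays compared (1.43, 0.0720), and it held in the other 17 of 20 alternatives. The probe set of GAMYB may bind related transcripts. Its cause was not tested. Groups of 2 or 3 arrays were too small for a test of single outlying arrays, and the distances from group means given above are only a description.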

How the results depend on the processing

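The 16 changes of the members from the unpollinated stage kept their direction and their call in all 234 alternative values, with GA20OX3 between 1.501 and 3.06 and CYP714D1 between 0.84 and 2.64 (adjusted p up to 0.00906 and 0.0148). The pathway genes kept their calls in 567 of 663 values and lost them in 96, with no change of sign. With only the arrays compared, the calls of KO2 in the bottom part (adjusted p = 0.0962) and of SLR1 (0.160) and GAMYB (0.101) in the top part at 3 DAP ended. Without the filter, those of GID1 at 1, 2 and 3 DAP (0.0510, 0.0694, 0.0559) and of KS1 (0.0803) and CPS1 (0.0660) at 2 DAP in the bottom part ended, as did those of SLR1 (0.0766) and KS1 (0.0751) at 3 DAP in the top part. With quantile normalization, GID1 in the bottom part at 2 and 3 DAP (0.0597, 0.0682) was no longer called, nor was CPS1 there at 2 DAP with a pseudocount of 0.0650 (0.0597).

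CYP714D1 between parts at 1 DAP was -0.80 (adjusted p = 0.0846) with only the arrays compared, and -0.94 to -0.65 with 1 array left out. Before pollination its left-out range was -0.57 to -0.26. Uncalled differences of GA20OX3 changed sign without bottom replicate 3 of 2, 3 and 4 DAP: between parts at 2 DAP (0.11) and 3 DAP (0.095), in the change at 3 DAP (0.30) and 4 DAP (0.032), and from 3 to 4 DAP in the bottom part (0.018). With 1 array left out, they ran from -0.50 to 0.096 between parts before pollination, -0.37 to 0.31 at 2 DAP and -0.43 to 0.095 at 3 DAP. In the change they ran from -0.17 to 0.51 at 2 DAP, -0.35 to 0.30 at 3 DAP and -0.50 to 0.096 at 4 DAP. Between days they ran from -0.33 to 0.25 from 3 to 4 DAP in the bottom part, -0.12 to 0.55 from 1 to 2 DAP in the top part and -0.12 to 0.55 from 2 to 3 DAP there. For CYP714D1 the difference in the change at 2 DAP ran from -0.26 to 0.045. The causes were not tested.

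The fit of 10 group means did not pair arrays by replicate number. Deviations of same-numbered arrays correlated between -0.63 and 0.75, with medians of 0.135, 0.0707 and 0.0928 for numbers 1, 2 and 3. Of 27 arrays, 19 correlated best with an array of their own number. Whether same-numbered arrays belong together was not tested. With the replicate block, GA20OX3 changed sign between parts at 2 DAP (0.093) and in the change at 3 DAP (0.076), both uncalled. The block multiplied the number of probe sets called by 1.04 to 1.54 over 17 comparisons.

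The number of pathway genes called, from 6, 5 and 5 at 2, 3 and 4 DAP in the bottom part, was 3, 2 and 3 with only the arrays compared. There it was also 3 instead of 5 at 1 DAP and 1 instead of 5 at 3 DAP in the top part, and 0 instead of 1 between parts at 3 and 4 DAP. Between parts it was 2 at 3 DAP with a pseudocount of 0.0650, 0 at 2 and at 4 DAP with 4 times the pseudocount, and 2 at 4 DAP without bottom replicate 3 of 2, 3 and 4 DAP. Without the filter it was 3 in the top part at 3 DAP. With 1 array left out it was 3 to 4 at 2 and at 3 DAP in the bottom part, 2 to 5 at 1 and at 3 DAP in the top part, and between parts 1 to 3, 1 to 2, 0 to 1, 0 to 3 and 0 to 1 from unpollinated to 4 DAP. Over all probe sets, fitting only the arrays compared moved the count by over 1.5 times in most comparisons, for example from 4692 to 1304 in the bottom part at 3 DAP, and leaving out those 3 arrays moved it between parts from 1191 to 1947 at 1 DAP and from 1572 to 717 at 3 DAP, and in the difference in the change from 307 to 532 at 1 DAP and from 1083 to 1625 at 4 DAP. The alternative of another probe set was not run for the members, because each has 1.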
